A study of Mus musculus with 7 samples.

Results

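The miR-199 and miR-214 miRNAs were taken from a real-time PCR survey of the healing skin wound edge, in which ischemic wounds were set against non-ischemic ones. Every miRNA assay on the plate whose name is miR-214 or begins with miR-199 was taken, a rule that uses names only but was set with earlier results of these data known. These were 4 of the 306 miRNA assays: miR-214, miR-199a*, miR-199b and miR-199a. All samples came from the wound edge of C57Bl6 mice on day 3 after wounding. The 4 non-ischemic samples are controls, and the 3 ischemic samples came from wounds in a bipedicle flap, a strip of skin that stays attached at its ends only, which restricts its blood supply. No genetic change or drug is named in the labels for either group, and they do not give the age or sex of the mice or say whether samples came from separate animals. The p-values therefore rest on sample-to-sample spread, and part of that may be technical.

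Mature miRNAs are short RNAs cut from a hairpin precursor. Bases 2 to 8 of the mature strand, the seed, pair with messenger RNAs, which are then repressed. In the mouse, Mir199a-2 and Mir214 are carried by one long noncoding RNA, Dnm3os, transcribed from the strand opposite the dynamin 3 gene, while Mir199a-1 and Mir199b lie opposite the dynamin 2 and dynamin 1 genes. Dnm3os and its miRNAs are known from mesenchyme, bone and cartilage precursors and fibroblasts, and the mouse transcription factor Twist1 is known to drive the transcript. In mouse muscle precursors miR-214 is known to repress the chromatin enzyme Ezh2, in human lung fibroblasts miR-199a-5p is known to repress caveolin and to promote fibrosis, and in rat heart muscle cells miR-199a-5p is known to fall at low oxygen and to act on the hypoxia factor Hif1a.

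The hairpins are shown because their sequences decide which gene each assay can report on. Sequences are those of RefSeq on mouse build GRCm38.p6, read 5′ to 3′, with the annotated mature strands in capitals. All 4 hairpins of the family were found in that set.
Mir199a-2: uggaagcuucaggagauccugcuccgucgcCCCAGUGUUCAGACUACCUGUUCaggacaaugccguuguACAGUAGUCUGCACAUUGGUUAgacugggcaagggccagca
Mir214: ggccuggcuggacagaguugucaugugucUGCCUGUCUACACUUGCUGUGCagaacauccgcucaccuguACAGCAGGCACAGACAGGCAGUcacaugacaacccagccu
Mir199a-1: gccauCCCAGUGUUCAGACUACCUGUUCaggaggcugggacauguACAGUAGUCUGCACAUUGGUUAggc
Mir199b: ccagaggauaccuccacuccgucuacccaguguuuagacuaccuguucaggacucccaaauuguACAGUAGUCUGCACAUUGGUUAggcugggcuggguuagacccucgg

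Mir199a-2 lies at chr1:162217814-162217923 and Mir214 at chr1:162223368-162223477, both on the plus strand and inside the annotated Dnm3os gene. The hairpins are 5444 bases apart. Mir199a-1 lies at chr9:21496495-21496564 on the minus strand and Mir199b at chr2:32318460-32318569 on the plus strand. Mir199a-1 and Mir199a-2 give the same mature strands, so no assay of miR-199a can tell the Dnm3os copy from the copy on chromosome 9. Of the 4 assays, miR-214 alone belongs to a single gene that Dnm3os carries.

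**Figure D1:**
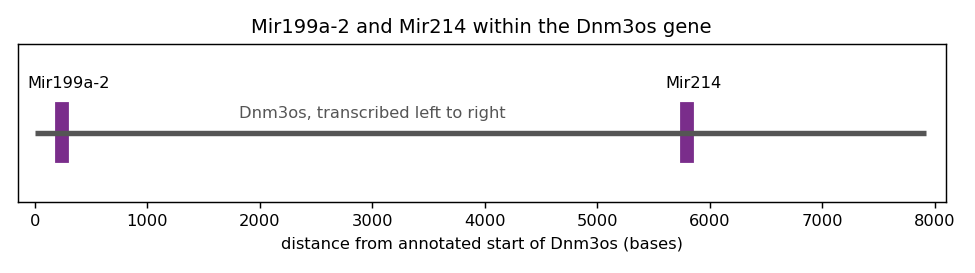
Positions of the Mir199a-2 and Mir214 hairpins (boxes) along the annotated Dnm3os gene (line), with distance from its annotated start in bases on the horizontal axis. Mir199a-2 begins 191 bases and Mir214 5745 bases after that start, in a gene annotated as 7928 bases long.

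The mature strands follow with the seed in capitals, since strands that share a seed share predicted targets.
miR-199a-5p: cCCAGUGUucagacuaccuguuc
miR-199a-3p: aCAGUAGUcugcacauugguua
miR-199b-3p: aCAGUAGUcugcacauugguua
miR-214-3p: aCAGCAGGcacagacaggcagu
miR-214-5p: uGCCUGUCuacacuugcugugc

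miR-199a-3p and miR-199b-3p did not differ at any base, so that an assay for this strand reads all of Mir199a-1, Mir199a-2 and Mir199b. The miR-199a-5p strand has 1 difference from its best match in the Mir199b hairpin, C10U, counted from the 5′ end of miR-199a-5p, with the base of Mir199b last. Among 1679 mature mouse names in that RefSeq set, miR-214-3p shared its seed with miR-761 alone, and miR-199a-5p shared its seed with none. However, that set holds no 5p strand of Mir199b. The C10U difference lies outside the seed, so the matching stretch of the Mir199b hairpin has the same seed bases as miR-199a-5p. The seeds of miR-214-3p and miR-199a-3p differ. The assay names are older than the arm suffixes. In the naming of that time miR-199a stood for the 5p strand, miR-199a* for the 3p strand and miR-214 for its 3p strand. The probe sequences were not used here, and the arm read by the miR-199b assay is not given by its name.

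Levels were read as the threshold cycle (Ct), the cycle at which product crosses a set line. A lower Ct is more RNA, and 40 stands where no product was seen. An assay counted as detected at a Ct below 35. A log2 level is the Ct of 5S rRNA minus that of the assay, so that it rises with the amount of RNA, and a difference of 1 is a doubling if each cycle doubles the product. Assays can amplify unequally, so the order of Ct between assays is a description only. By mean Ct over the 7 samples, miR-214 (31.6) ranked 47 of 306, miR-199a* (35.4) ranked 101, miR-199b (38.02) ranked 135 and miR-199a (39.5) ranked 173. miR-214 was detected in all 7 samples, miR-199a* in 2, and the other 2 assays in 0.

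Facts of the whole plate bear on all values below. Between 91 and 106 miRNAs were detected per sample, and the 103 detected in at least 3 samples were tested. The Ct of 5S rRNA ran from 14.5 to 14.8 and that of 18S from 11.4 to 12.6. Ischemic sample 3 stood apart from the rest. Across 76 miRNAs detected in every sample its correlation with the other samples was 0.756 to 0.830, against 0.908 to 0.977 among those others; miRNAs are not independent replicates. The tested miRNAs had a median difference of -0.35 (ischemic minus non-ischemic, log2) against 5S rRNA. This median lay between -0.51 and 0.22 under the other references tried, so differences relative to it are given too.

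miR-214 had a lower mean in the ischemic wound edge, carried by 2 of the 3 ischemic samples. Its Ct was 30.98, 31.27, 31.03 and 30.86 in non-ischemic samples 1 to 4. In ischemic samples 1 to 3 it was 33.39, 31.04 and 32.88. Ischemic samples 1 and 3 were thus later than every non-ischemic sample, whereas ischemic sample 2 lay inside their range, and the groups overlapped. Relative to 5S rRNA, the log2 level was -16.38 ± 0.32 (SD, n = 4) in non-ischemic and -17.91 ± 1.18 (SD, n = 3) in ischemic samples. Ischemic samples 1, 2 and 3 lay 5.42-fold, 1.15-fold and 3.84-fold below the non-ischemic mean. In a bulk tissue such as this, fewer cells that make a miRNA and less of it per cell cannot be told apart.

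The mean difference of miR-214 was -1.53 ± 0.55 (SE) on the log2 scale, a level 2.88-fold lower, with a 95% confidence interval from -2.78 to -0.28. That interval takes the same spread for both groups, whereas the SD was 0.32 in non-ischemic and 1.18 in ischemic samples, so it may be too narrow. miR-214 did not pass the threshold after adjustment over all 103 tested miRNAs (limma, adjusted p = 0.219, lower in 3 of 3 ischemic samples than the non-ischemic mean). Its unadjusted p was 0.0221 in limma, a level under 0.05 that 18.4% of the tested miRNAs reached (19 of 103) and 13.6% reached with a lower ischemic mean (14 of 103), while 0% passed after adjustment. The exact permutation test on miR-214 alone gave p = 0.0571 (two-sided, n = 4 and 3, smallest possible 0.0286). Relative to the median of all tested miRNAs the miR-214 difference was -1.17, a value that a change of reference RNA cannot alter because it shifts every miRNA of a sample alike. Quantile normalization, which could alter it, also gave -1.17. Without ischemic sample 2 the difference was -2.19 ± 0.45 (SE, adjusted p = 0.120 in limma), and without ischemic sample 1 it was -1.07 ± 0.56 (0.467). Without ischemic sample 3 it was -1.32 ± 0.58 (0.244 in limma), where 7.77% of the tested miRNAs (8 of 103) passed and miR-214 did not.

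**Figure D2:**
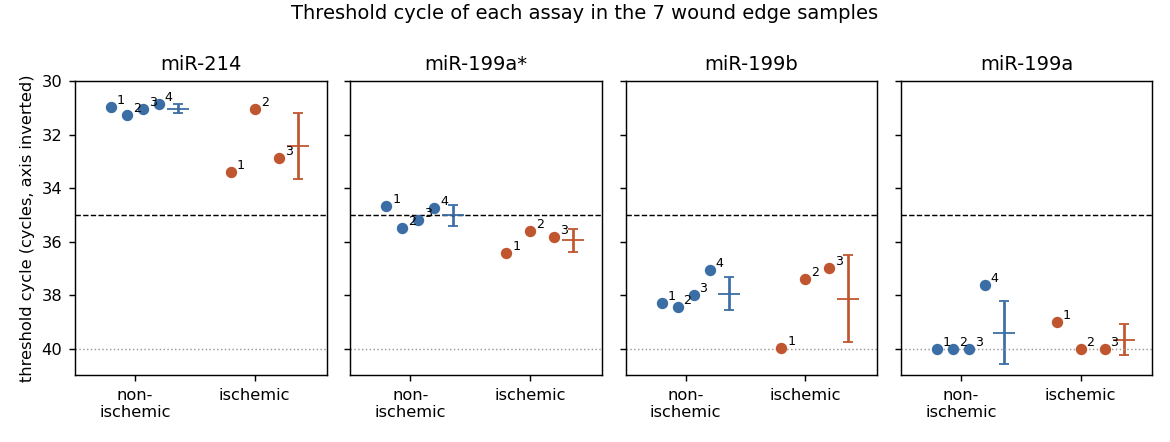
Ct of each assay (cycles, axis inverted so that higher points are more RNA) in each sample, numbered by replicate, with the mean and SD of each group beside the points. The dashed line is the detection limit of 35 and the dotted line, at 40, stands for no product. miR-214 lies between 30.9 and 33.4, miR-199a* around the detection limit and the other assays beyond it.

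miR-199a*, which by the older naming is the 3p strand, was lower in all 3 ischemic samples than in any non-ischemic sample, at levels near the detection limit. Its Ct was 34.65, 35.48, 35.21 and 34.75 in non-ischemic samples 1 to 4, and 36.42, 35.61 and 35.84 in ischemic samples 1 to 3. The groups did not overlap, though the gap between them was only 0.14 log2 units after 5S rRNA was subtracted. Such a separation with the ischemic side lower was seen for 12.4% of the 121 miRNAs with a product in all 7 samples, and one in either direction for 16.5%. The log2 level was -20.37 ± 0.52 (SD, n = 4) and -21.43 ± 0.37 (SD, n = 3), a difference of -1.05, or 2.08-fold. Relative to the median of the tested miRNAs the difference was -0.70.

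With a Ct below 35 in 2 samples, both non-ischemic, miR-199a* was not among the 103 tested miRNAs. In limma over the 121 miRNAs with a product in all 7 samples, a set chosen after the data were seen, its difference was -1.05 ± 0.43 (SE), with a 95% confidence interval from -2.02 to -0.08 and an adjusted p of 0.258; 0% of that set passed. The exact permutation test on miR-199a* alone gave p = 0.0571 (two-sided, n = 4 and 3). When each Ct above 35 was set to 35 the difference shrank to -0.27, as most of these values lay beyond that limit.

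miR-199b was beyond the detection limit in all samples and did not follow the groups. Its Ct was 38.29, 38.45, 37.98 and 37.06 in non-ischemic samples 1 to 4 and 39.98, 37.41 and 36.99 in ischemic samples 1 to 3. The latest value, in ischemic sample 1, was next to no product, and the earliest stood in ischemic sample 3. The log2 difference was -0.30, within the SDs of 0.76 (non-ischemic) and 1.59 (ischemic; exact permutation p = 0.771, two-sided, n = 4 and 3). It turned to 0.60 without ischemic sample 1, to 0.05 without non-ischemic sample 4 and to 0.27 against the global median.

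miR-199a, which by the older naming is the 5p strand, gave a product in 2 of 7 samples. The Ct was 37.63 in non-ischemic sample 4 and 39.00 in ischemic sample 1, and 40 in the other 5. These values allow no comparison of the groups. The miR-199a* assay (mean Ct 35.4) thus gave a product in every sample, with a Ct below 35 in 2, and the miR-199a assay (mean 39.5) in few. Whether the assays amplify alike is not known from these data. The 3p strand also comes from Mir199b, so the arms of miR-199a are not compared like for like.

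The authors' deposited table gives folds of ischemic over non-ischemic for these assays as ratios of arithmetic means, namely 0.431 for miR-214, 0.469 for miR-199a*, 0.565 for miR-199a and 0.987 for miR-199b in that table. Ratios of geometric means, the scale used above, were 0.347, 0.481, 0.768 and 0.811 in the same order. For miR-214 the arithmetic mean weights ischemic sample 2, whose linear ratio to 5S rRNA was 10.2 ppm, above ischemic samples 1 and 3 with 2.16 and 3.05. The 0.565 of miR-199a rests on 1 non-ischemic sample with a product.

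The next question was whether the assays move together from sample to sample. Of these, miR-214 alone is specific to Dnm3os. The 3p strand, taken as the one read by miR-199a*, also comes from Mir199a-1 and Mir199b, and miR-199b is named for a hairpin outside Dnm3os. The correlations and ratios below therefore cannot show whether miRNAs of the shared transcript itself move together. If the miR-199b assay is for the 3p strand, it reads the same sequence as miR-199a*, and its name does not settle this. No pair of the 4 assays was detected in all 7 samples, so the 3 pairs among miR-214, miR-199a* and miR-199b, each with a product in every sample, were used, a criterion chosen after the data were seen. miR-214 and miR-199a* ordered the 7 samples nearly alike. Pearson's r of their log2 levels was 0.851 (exact permutation p = 0.0175, adjusted over the 3 pairs 0.0524, n = 7 samples) and Spearman's rho 0.964 (exact p = 0.00278, adjusted 0.00833), so that after adjustment rho passed 0.05 and r did not. Without ischemic samples 1 and 3, the 2 farthest from the median of miR-214, r was 0.885 (exact permutation p = 0.0417, n = 5). The points share the 5S rRNA value of each sample, and on raw Ct, without it, r was 0.852. After global mean normalization r was 0.713 (exact permutation p = 0.0667), and for deviations from each group's own mean it was 0.632. The permutations shuffled samples across both groups, so their p-values also take in the lower ischemic means of both assays. For the deviations no p-value is given. Leaving out non-ischemic sample 3 gave r = 0.850 (exact permutation p = 0.0556, n = 6), and the other samples left out in turn gave 0.733 to 0.923 with p under 0.05.

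Neither pair with miR-199b passed. miR-214 and miR-199b had r = 0.495 (exact permutation p = 0.258, n = 7) and rho = 0.500 (exact p = 0.267), and miR-199a* and miR-199b had r = 0.540 (exact p = 0.215) and rho = 0.393 (exact p = 0.396). Adjusted over the 3 pairs these r have p = 0.258 each and these rho 0.396 each (exact permutation). Without the 2 samples farthest from the median of the first assay, r was 0.752 (exact permutation p = 0.142, n = 5) and 0.563 (exact p = 0.308, n = 5). The pair of miR-214 and miR-199b hung on single ischemic samples: r was 0.908 (exact permutation p = 0.0111) without ischemic sample 3, where the assays went opposite ways, and -0.24 (exact p = 0.718) without ischemic sample 1, where both were lowest.

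**Figure D3:**
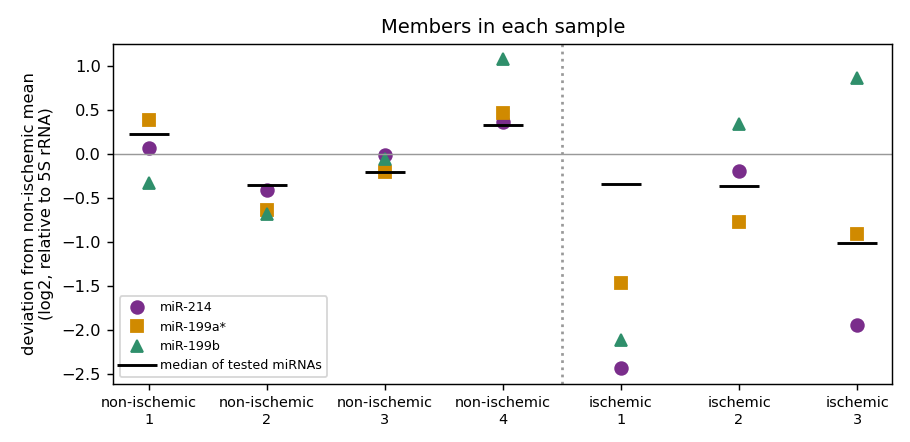
Log2 level relative to 5S rRNA in each sample as the deviation from the mean of the non-ischemic samples, for miR-214, miR-199a* and miR-199b, with the median of the 103 tested miRNAs as a bar. In ischemic sample 1 all 3 assays lie below the median bar, whereas in ischemic sample 3 miR-214 is at -1.94, miR-199a* at -0.91 and miR-199b at 0.86.

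Within a sample the ratio of 2 members does not depend on the reference RNA. The log2 ratio of miR-214 to miR-199a* was 3.68, 4.22, 4.18 and 3.89 in non-ischemic samples 1 to 4 and 3.03, 4.57 and 2.97 in ischemic samples 1 to 3. It thus lay below all non-ischemic values in ischemic samples 1 and 3 and above all of them in ischemic sample 2. The mean ratio differed by -0.47 between groups, with SDs of 0.26 (non-ischemic) and 0.91 (ischemic; exact permutation p = 0.343, two-sided, n = 4 and 3). The ratio of miR-214 to miR-199b differed by -1.22 (exact permutation p = 0.114) and that of miR-199a* to miR-199b by -0.75 (exact p = 0.314). Adjusted over the 3 pairs each had p = 0.343 (exact permutation). A single pair could not have passed here, since the smallest exact p of 0.0286 becomes 0.0857 when adjusted over 3 pairs, so these tests do not show that the members respond alike.

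To place the likeness of miR-214 and miR-199a*, each was set against all miRNAs with a product in every sample. Over the 7 samples, miR-199a* was 4th of 120 in its r with miR-214 and miR-199b 39th, where the median r was 0.376. After global mean normalization the median was -0.06 and miR-199a* was 3rd of 120. In the other direction miR-214 was 7th of 120 in its r with miR-199a* against 5S rRNA, 1st on raw Ct and 11th after global mean normalization. These ranks are descriptions over 7 samples that differ in group and depth of detection.

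Among the tested miRNAs, those most like miR-214 were miR-191 (r = 0.913), a broadly expressed miRNA, miR-692 (0.898), miR-376a of the imprinted Dlk1-Dio3 cluster (0.895), miR-26b (0.845) and the endothelial miR-126 (0.844). The least like were the muscle miRNA miR-133a (-0.66) and the erythroid miR-451 (-0.65). The median r over all 102 was 0.391. After global mean normalization miR-692, miR-376a, miR-26b, miR-191 and miR-126 were 1st, 2nd, 4th, 7th and 22nd in r with miR-214. Like miR-214, miR-692 and miR-376a were lower in ischemic samples 1 and 3 than in ischemic sample 2. Both were picked by their r with miR-214 over the same samples, so this likeness is not an independent observation. miR-692 deviated by -3.42, -0.38 and -1.11 from its non-ischemic mean in ischemic samples 1 to 3. miR-376a deviated by -1.28, -0.52 and -1.87.

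**Figure D4:**
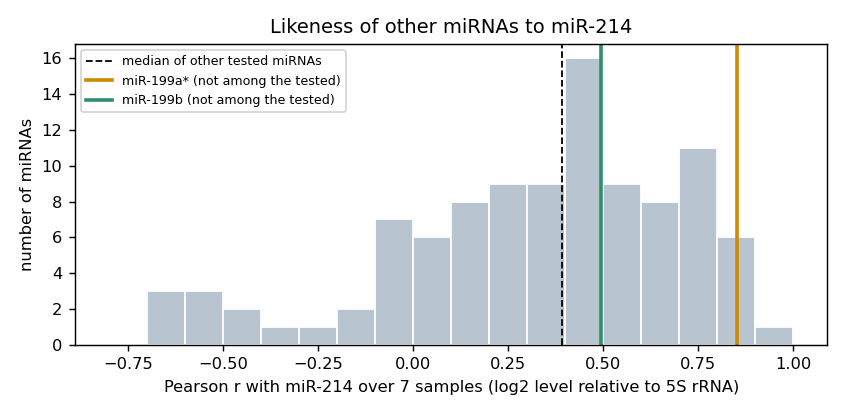
Distribution of Pearson's r with miR-214 over the 7 samples for the 102 other tested miRNAs (bars, number of miRNAs), with the median (dashed line) and the values of miR-199a* and miR-199b (coloured lines). miR-199a* stands at 0.851, in the upper end of the distribution, and miR-199b at 0.495, near its median of 0.391.

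The name fibroblast for these miRNAs can be set only against other miRNAs of mesenchymal cells, which other skin cells make as well. A lower ischemic mean was seen for 76.7% of the tested miRNAs against 5S rRNA, and for 32.04% to 82.5% under the other references. Of 15 miRNAs known from fibroblasts, smooth muscle and other mesenchyme, apart from the miR-199 and miR-214 assays, 9 were tested, 8 had a lower and 1 a higher ischemic mean, and 0 passed in limma. Their median difference of -0.41 was close to the -0.35 of all 103 tested miRNAs. The count leaned on ischemic sample 3, without which 5 of the 9 had a lower mean and the median was -0.32, beside 56.3% lower and a median of -0.14 over all tested miRNAs. The mean deviation of the list was -0.35, -0.31 and -0.56 in ischemic samples 1 to 3, where miR-214 deviated by -2.44, -0.20 and -1.94. miR-127, of the imprinted Dlk1-Dio3 cluster, was at -1.26 ± 0.62 (SE, adjusted p = 0.351 in limma), with deviations of -2.06, -1.96 and 0.23 in ischemic samples 1 to 3. miR-29a, which represses collagen genes, was at -0.53 ± 0.34 (0.475 in limma). miR-145, of smooth muscle, was at -0.04 ± 0.39 and miR-125b at -0.06 ± 0.42 (adjusted p = 0.954 and 0.947 in limma). In ischemic sample 1 the 9 deviations ran from -2.06 (miR-127) to 0.77 (miR-21), with miR-99a at -1.15. In ischemic sample 3 they ran from -2.53 (miR-21) to 0.54 (miR-145), with miR-140 at -1.63, miR-29c at -1.54 and miR-125b at 0.46. The list thus held members on both sides of the non-ischemic mean in each of these samples.

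miRNAs known from fibrosis and TGF-beta signalling, in which miR-199a and miR-214 are also placed, gave a like picture. Of 12 on the list 10 were tested, and 10 had a lower ischemic mean with a median of -0.42 and 0 past the threshold in limma. Over all tested miRNAs, 76.7% were lower against 5S rRNA, with a median of -0.35. Without ischemic sample 3, 5 of the 10 had a lower mean and the median was -0.03, beside 56.3% and -0.14 over all tested miRNAs. With each other sample left out the median of the list lay between -0.74 and -0.25, and that of all tested miRNAs between -0.50 and -0.22. The mean deviation of the list was -0.11, -0.14 and -1.76 in ischemic samples 1 to 3. The lowest were miR-18a at -1.98 ± 1.15 (SE, adjusted p = 0.422 in limma), which was -0.35 without ischemic sample 3, and miR-200b, which represses the Zeb factors of the mesenchymal state, at -1.98 ± 0.50 (0.120). miR-21, which promotes fibrosis, was at -0.46 ± 0.77 (0.811 in limma), with deviations of 0.77, 0.38 and -2.53 in ischemic samples 1 to 3. On both lists miR-29b had no product in any sample.

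Markers of the other cell types of skin also moved between the ischemic samples, and their part in the miR-214 values was not tested. Lymphocyte markers (2 of 2 tested) deviated by -1.20, -0.18 and -0.58 on average in ischemic samples 1 to 3, and the endothelial marker miR-126 by -0.91, -0.08 and -0.37. The mean difference of miR-126 was -0.46 ± 0.37 (SE, adjusted p = 0.620 in limma). Its other strand, miR-126*, which is not on the list, was at -0.06 ± 0.54 (0.954 in limma). miR-126 put the ischemic samples in the order seen for miR-214. Of the lymphocyte markers, miR-342 did so with -1.67, 0.00 and -1.28, whereas miR-150 was at -0.73, -0.37 and 0.12. miR-126 and miR-342 were 5th and 7th of 102 in r with miR-214 over the same samples, so their order is not an independent observation. The share of all tested miRNAs with that order was not counted. Keratinocyte markers (5 of 7 tested) deviated by -1.03, -1.17 and -0.37 on average, unevenly over the members. Of these, miR-200b was at -2.18, -2.55 and -1.20, miR-203 at -1.93, -2.24 and -0.08 and miR-429 at -1.01, -0.68 and 0.24. By contrast, miR-205 was at -0.03, 0.18 and -0.30 and miR-200c at 0.02, -0.55 and -0.53. Skeletal muscle markers (4 of 4 tested) deviated by 0.21, 1.11 and 1.96. Myeloid and pan-leukocyte markers (3 of 3 tested) deviated by 0.25, 0.38 and -4.36, and erythroid markers (2 of 2 tested) by 2.97, 2.23 and 2.58. Myeloid markers were thus near their non-ischemic mean in ischemic samples 1 and 2 and far below it in ischemic sample 3.

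The summed levels of the marker lists, as linear ratios in ppm of 5S rRNA, give the same comparison with abundant markers weighted most. Lymphocyte markers summed to 15.8 to 19.8 in non-ischemic and 9.30 to 16.3 in ischemic samples, with the lowest sum in ischemic sample 1 and the highest ischemic one in ischemic sample 3. miR-126 ran from 18.5 to 27.99 and 12.8 to 22.7. Keratinocyte markers summed to 27.5 to 51.4 and 19.2 to 27.8, and skeletal muscle markers to 159 to 212 and 241 to 875. Myeloid markers summed to 3093 to 4826 and 145 to 4445, erythroid markers to 0.309 to 1.74 and 3.57 to 7.60, and smooth muscle markers (miR-143 and miR-145, 1 of 2 tested) to 1.17 to 2.05 and 1.15 to 2.46. No marker on these lists lacked a product in all samples. The skeletal muscle and erythroid sums did not overlap between groups, a separation seen in either direction for 17.5% of the single tested miRNAs. Of their members, miR-1, miR-133a, miR-133b and miR-451 did not overlap either, whereas miR-206 and miR-486 did. The muscle sum was 241, 405 and 875 in ischemic samples 1 to 3, where the miR-214 deviations were -2.44, -0.20 and -1.94.

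The direction of the miR-214 and miR-199a* differences was lower in ischemic samples under every normalization, filter and left-out sample in which each had a value.

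**Figure D5:**
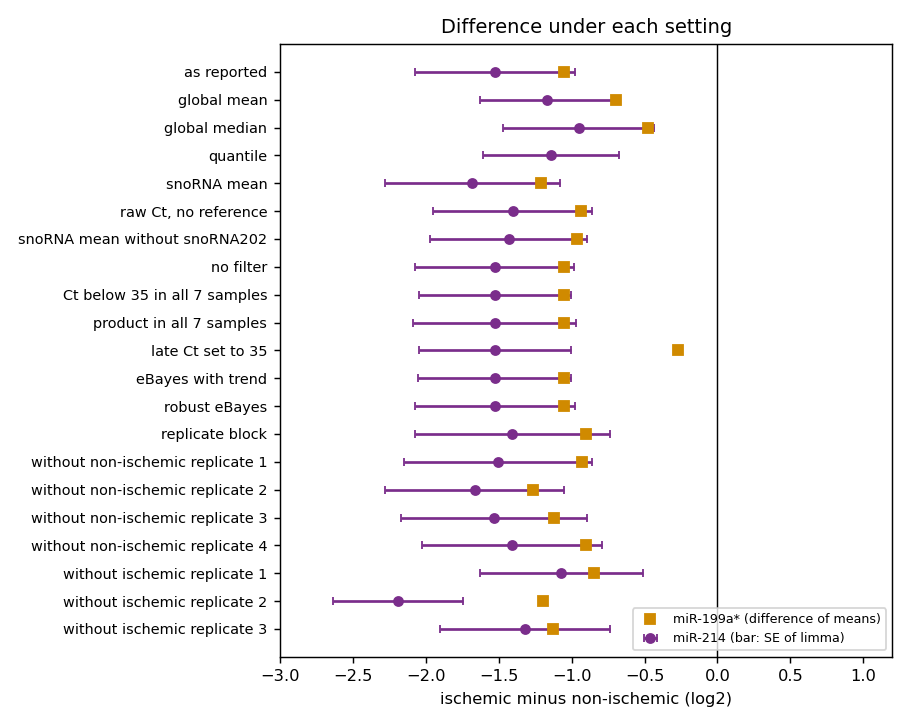
Difference between ischemic and non-ischemic samples (log2) for miR-214 (circles, bars are the SE of limma) and miR-199a* (squares, difference of means) as reported, under each other setting and with each sample left out. miR-214 runs from -2.19 without ischemic sample 2 to -0.95 against the global median, and miR-199a* from -1.27 to -0.27.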

How the data were processed

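Per the labels, RNA (500 ng) was reverse transcribed with pooled looped primers and read on an Applied Biosystems 7900HT. For the software that set the Ct, the sources used here give no name. Deposited by the authors were raw Ct values, a log2 delta Ct, the linear ratio to 5S rRNA, and a table of group means with their fold (ischemic divided by non-ischemic). The deposited log2 values equalled the 5S rRNA Ct minus the assay Ct within 0.0001 cycles for 315 of 316 assays. The 7 columns that repeat 5S rRNA were not used.

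Groups come from the sample titles. limma 3.58.1 in R 4.3.3 (lmFit, eBayes, Benjamini-Hochberg) compared 3 ischemic with 4 non-ischemic samples over the 103 miRNAs that 3 or more samples detected (Ct below 35), with no value of 40 removed. Single assays, ratios and correlations were tested by exact permutation over samples with Python 3.11.15. The limma procedure was run on simulated data, with independent miRNAs and the non-ischemic spread in both groups. A wider ischemic spread, as in miR-214, and a sample standing apart were not simulated. PCR values hold no molecule count, so precision rests on the spread between samples.

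The members and the marker lists were chosen with earlier results of these data known. The rule for named miRNAs took every member, the 5 miRNAs most like and the 2 least like miR-214 by Pearson's r, and members of the lists. miR-126* was named outside that rule. Alternatives covered references, filters, late Ct, variance models, left-out samples and a replicate block. The list counts with samples left out, the snoRNA mean without snoRNA202, the set with a product in all 7 samples and the deviations from group means were chosen after seeing the data.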

Additional observations from a re-analysis of the deposited data

Results flagged for a closer look

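The log2 level of miR-199a in the non-ischemic group held a value far from the rest. Non-ischemic sample 4 (Ct 37.63) lay apart from the other 3, which gave no product, by 0.930 of the range of the group, above Dixon's 95% critical value for 4 samples. The other 3 stand at the limit of 40 and differ only through 5S rRNA, so a single product is enough to pass, and the usual chance rate of about 1 group in 20 does not hold for such values. In all, 7 groups of values were looked at. The same sample had the earliest Ct of miR-214 and of miR-199b among the non-ischemic samples.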

How the results depend on the processing

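The differences of miR-214 (-1.68 to -0.95 over references, filters, late Ct, variance models and the replicate block, -2.19 to -1.07 over left-out samples) and miR-199a* (-1.27 to -0.85 over left-out samples) kept their direction, and miR-214 passed in none, with adjusted p from 0.120 to 0.559 in limma. miR-199a* moved to -0.48 against the global median and to -0.27 with late Ct set to 35, which by construction removes levels beyond detection. Over left-out samples miR-199b ran from -0.89 to 0.60 and miR-199a from -0.73 to 0.27. The count of called miRNAs was 1 (miR-451) after global mean, global median and quantile normalization, where the untested assays have no quantile value, and 0 to 8 over left-out samples, 8 without ischemic sample 3.

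The correlation of miR-214 with miR-199a* was 0.713, 0.696 and 0.632 after global mean, global median and within groups, and 0.733 to 0.923 over left-out samples. It lost p under 0.05 after global mean (exact permutation p = 0.0667) and global median (exact p = 0.118). The same held without non-ischemic sample 3 (exact p = 0.0556). That of miR-214 with miR-199b ran from -0.24 to 0.908, and that of miR-199a* with miR-199b from 0.048 to 0.752. Detection below 38 gave 1 sample for miR-199a, 7 for miR-199a* and 4 for miR-199b, and below 32 gave 0 for miR-199a* and 5 for miR-214. Where no cause is named, the cause was not tested.

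The labels link same-numbered samples by nothing but the number. Correlations of their deviations were -0.08, -0.30 and -0.11, and those of differently numbered samples ran from -0.43 to 0.41. Such values cannot tell whether same-numbered samples came from the same animal. With the replicate block, which leaves non-ischemic sample 4 without a partner, miR-214 was at -1.41 (adjusted p = 0.559 in limma) and 0 miRNAs passed.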
